A study of Mus musculus with 6 samples.

Results

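The genes described here mark the neurons that are added to the adult olfactory bulb (OB): Dlx1, Dlx2, Dlx5, Dlx6, Sp8 and Sp9, which encode transcription factors of the lineage, Dcx and Prokr2, which are used by migrating neuroblasts, and Th and Calb2, which mark subtypes of mature interneurons. They were chosen by symbol, with earlier results of these data known. All 10 were found among the 24421 symbols listed for each library and passed the filter on low values. RNA was sequenced from TurboRFP-positive cells sorted from the OB of 3 control and 3 Sox9 KO mice. All 6 mice had received AAV-GFAP-iCre-P2a-TurboRFP in the OB as adults, a virus in which the astrocyte promoter GFAP drives both Cre recombinase and a red fluorescent protein, TurboRFP, and cells were collected 4 weeks later. The KO mice carried Sox9fl/fl, in which Cre removes the floxed part of Sox9, while the controls were C57BL/6J mice with intact Sox9 (Sox9+/+) that received the same virus. The labels give the strain as C57BL/6 for both groups, and the study's methods describe the sorted mice as males. Expression of TurboRFP thus rested on the GFAP promoter in the virus, and what else shaped the make-up of the sorted cells was not tested. The cells were collected in lysis buffer, so they were not sorted again to check purity, and the study judged purity from cell type markers in the RNA-seq data.

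In the adult forebrain, stem cells of the subventricular zone divide and give rise to neuroblasts, which travel in chains along the rostral migratory stream and become granule and periglomerular interneurons in the OB. Dlx transcription factors specify GABAergic interneurons in this lineage, and Sp8 and Sp9 are needed for neuroblasts to migrate and mature. Dcx binds microtubules in the moving neuroblast, Prokr2 is the receptor for prokineticin 2, a secreted protein of the OB that attracts neuroblasts, Th is the rate-limiting enzyme of dopamine synthesis and Calb2 is the calcium-binding protein calretinin. None of these genes is a marker of mature astrocytes.

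The libraries held between 18242129 and 86906527 reads on genes. Values are normalized counts, that is, reads on a gene divided by 1 size factor per library, and 1 read was worth between 0.395 and 1.58 normalized counts. Sox9 measured 5185, 6562 and 4921 normalized counts in the control libraries and 52.6, 64.3 and 57.7 in the KO libraries. This matched the labels of all 6 libraries. Fold changes are on the log2(normalized count + 1) scale, as Sox9 KO over control, and a gene was called at a limma p under 0.05, adjusted by the Benjamini-Hochberg method over all 18413 genes tested, with a change of at least 1.5-fold. By this rule 28.8% of all genes tested were called lower in Sox9 KO and 22.2% were called higher (5299 and 4090 genes), and the median log2 fold change over all genes was -0.07. In 34.7% of the genes tested every KO library lay below every control library, and in 32.4% every KO library lay above. The balance between the directions moved with the scaling, with 4100 genes called lower and 5380 higher after quantile normalization, and 6597 lower and 2630 higher when libraries were set to the same total without Rn45s, a gene of the ribosomal RNA precursor that held 14.2% to 22.4% of each library's reads. Each library comes from 1 mouse, and p-values measure the spread between these samples.

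All 10 genes were lower in the Sox9 KO libraries. The control mean was between 7.53 times (Th) and 122 times (Prokr2) the KO mean, and for each gene the lowest control library lay above the highest KO library. All 10 were called lower, against the background of 28.8%, and all 10 were among the 1841 most decreased of the 18413 genes tested. As the genes were chosen with earlier results of these data known, these counts are a description. The median of their log2 fold changes was -3.65. Summed over the 10 genes, the control libraries held 4945, 5263 and 6281 normalized counts and the KO libraries 256.1, 446.5 and 331.2. In bulk RNA, fewer cells of a type and less RNA per cell cannot be told apart. In the same libraries the mean summed level of 14 astrocyte markers was 13.9 times lower in KO than in control, that of 14 pan-neuronal genes was 5.0 times lower and that of 12 microglia and macrophage markers was 4.12 times higher, and the part of these shifts in the decrease of the 10 genes was not tested.

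**Figure D1:**
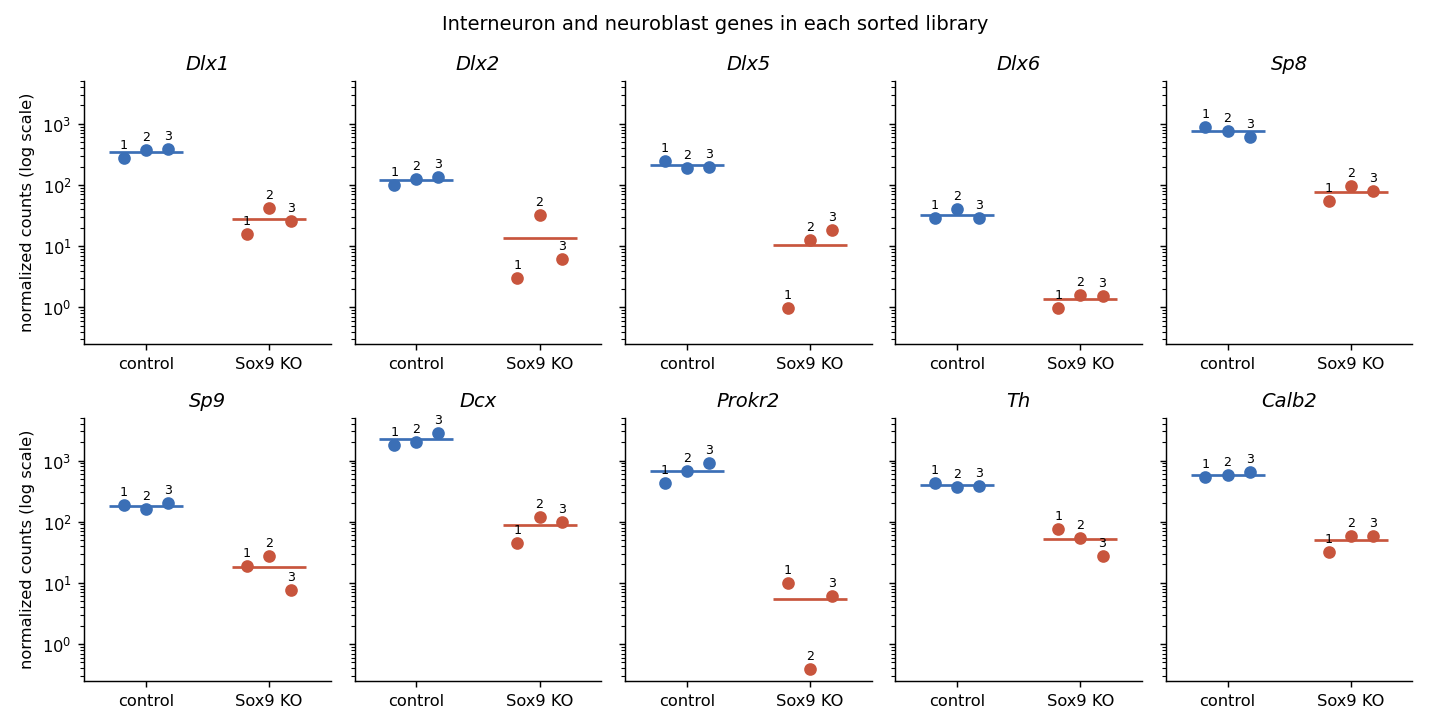
Normalized counts (log axis) of each of the 10 genes in the 3 control libraries (blue) and the 3 Sox9 KO libraries (red), with the replicate number above each point and the group mean as a line. The groups are apart for every gene, and the KO points spread more widely, most of all for Dlx5 and Prokr2.

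The promoters of these genes are shown because the genes fell together. RefSeq windows of 300 bases around the start of transcription (GRCm38.p6) were found for 7 of the 10 genes, with 10 windows in all because Dcx and Sp8 have several starts. The stretches upstream of the annotated exons are printed for an early lineage factor (Dlx2), a second family of factors (Sp9), the gene with the largest decrease (Prokr2) and the enzyme of the dopaminergic cells (Th). Capitals mark the motifs searched, on either strand: the SOX cores AACAAT and ACAAAG, the homeodomain core TAATTA that Dlx proteins can bind, and the GC box GGGCGG, which reads CCGCCC on the other strand and is an element bound by Sp family proteins.
Dlx2, chr2:71546755-71547004, minus strand: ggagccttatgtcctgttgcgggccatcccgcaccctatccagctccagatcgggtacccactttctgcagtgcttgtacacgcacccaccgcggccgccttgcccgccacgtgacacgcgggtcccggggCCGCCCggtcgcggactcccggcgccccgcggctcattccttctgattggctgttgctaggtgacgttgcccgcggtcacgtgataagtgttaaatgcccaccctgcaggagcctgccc
Sp9, chr2:73271676-73271924, plus strand: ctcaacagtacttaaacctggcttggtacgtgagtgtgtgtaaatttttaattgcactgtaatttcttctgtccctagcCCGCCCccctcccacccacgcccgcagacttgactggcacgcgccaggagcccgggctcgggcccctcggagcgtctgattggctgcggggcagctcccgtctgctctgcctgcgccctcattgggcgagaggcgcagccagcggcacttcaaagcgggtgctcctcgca
Prokr2, chr2:132385503-132385697, minus strand: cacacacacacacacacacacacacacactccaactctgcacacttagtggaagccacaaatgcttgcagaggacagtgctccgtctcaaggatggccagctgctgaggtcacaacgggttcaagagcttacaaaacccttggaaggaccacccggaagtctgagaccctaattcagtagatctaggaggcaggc
Th, chr7:142900015-142900245, minus strand: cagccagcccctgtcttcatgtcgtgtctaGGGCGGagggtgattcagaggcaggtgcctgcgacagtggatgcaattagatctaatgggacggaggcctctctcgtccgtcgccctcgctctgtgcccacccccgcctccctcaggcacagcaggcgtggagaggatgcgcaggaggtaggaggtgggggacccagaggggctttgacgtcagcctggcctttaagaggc
The printed stretches of Dlx2, Sp9 and Th each hold 1 GC box and no other motif, and that of Prokr2 holds none of these motifs. Over the whole windows, GGGCGG was present in 6 of the 10 windows, against 35.7% of 32851 mouse promoters of the same length. The window of Prokr2 held 2, which lie outside its printed stretch. TAATTA was present in 3 of 10, against 5.29% of promoters, in 2 overlapping windows of Dcx and 1 of Sp8. The 2 windows of Dcx share bases, so 1 match can count in both. The differences from all promoters were not tested. ACAAAG was present in 1 window, of Dcx, against 18.7%, and AACAAT in 0 of 10, against 10.7%. A match of these letters is a description and not a binding site.

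The Dlx genes lie in 2 pairs in the genome. Dlx1 (chr2:71528113-71533981) and Dlx2 (chr2:71543408-71546754) are transcribed towards each other, as are Dlx6 (chr6:6863334-6867970) and Dlx5 (chr6:6877801-6882068), in coordinates of GRCm38.p6. Dlx1 and Dlx2 act early in the lineage and are needed for OB interneurons to form. Dlx1 measured 280.6, 374.4 and 384.6 normalized counts in the control libraries and 15.9, 41.9 and 25.8 in the KO libraries. It fell by 3.68 on the log2 scale (SE 0.34, limma adjusted p = 6.1e-06). Dlx2 measured 100.8, 125.9 and 134.0 in controls against 2.98, 32.0 and 6.08 in the KO libraries. Its KO value in replicate 2 stood well above the other 2, which rested on 3 and 4 reads. The log2 fold change of Dlx2 was -3.63 (SE 0.67, limma adjusted p = 0.00081), and it was -4.50 without KO replicate 2 and -2.98 without KO replicate 1.

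Dlx5 and Dlx6 act later and remain on in maturing interneurons. Dlx5 measured 244.0, 189.3 and 195.5 normalized counts in controls against 0.993, 12.6 and 18.2 in the KO libraries, which are 1, 32 and 12 reads. It fell by 4.70 on the log2 scale (SE 0.72, limma adjusted p = 0.00022), with -3.69 without KO replicate 1 and -5.33 without KO replicate 3. Dlx6 measured 29.2, 39.9 and 28.4 normalized counts in the control libraries, and it was at 0.993, 1.58 and 1.52 in the KO libraries. The KO values of Dlx6 are 1, 4 and 1 reads, and the ratio of pooled reads, scaled by the size factors, was 24.2 in favour of the controls (95% exact interval 10.7 to 67.7, counting error only). The log2 fold change of Dlx6 was -3.82 (SE 0.50, limma adjusted p = 7.4e-05), a scale that understates the change of a gene this low.

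Within a pair, the ratio of the partners' normalized counts, which is not corrected for length, varied less between the control libraries than between the KO libraries. Dlx1 was 2.78, 2.97 and 2.87 times Dlx2 in the controls, and 5.33, 1.31 and 4.25 times in the KO libraries. Dlx5 was 8.35, 4.74 and 6.89 times Dlx6 in controls against 1, 8 and 12 times in the KO libraries, where the reads are too few to order them. The KO ratios spanned the control ratios in both pairs.

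Both pairs have noncoding partners, which are transcribed across Dlx1 or Dlx6. Dlx6os1, also known as Evf2, a noncoding RNA that spans Dlx6 and acts on the Dlx5/6 enhancers, measured 618.1, 761.1 and 1039 normalized counts in controls against 26.8, 49.0 and 60.8 in the KO libraries. It fell by 4.16 on the log2 scale (SE 0.31, limma adjusted p = 1.1e-06). Dlx1as, transcribed against Dlx1, measured 48.2, 61.3 and 56.7 in controls against 1.98, 4.74 and 10.6 in the KO libraries, and fell by 3.26 (SE 0.54, limma adjusted p = 0.00039). Dlx6os2 had 2, 10 and 10 reads in controls against 0 in each KO library. With 3 reads over the KO group as the floor, the ratio of pooled reads was 11.1. The lower limit of its 95% exact interval was 8.3 (counting error only). Dlx1 shares 335 exon bases with Dlx1as (6.21% of its exons) and Dlx6 shares 104 with Dlx6os2 (4.38%), on opposite strands. The sources used here do not say whether strand was used in counting, so reads in those bases cannot be assigned. Dlx6os1 shares 0 exon bases with Dlx5 or Dlx6. Dlx3 and Dlx4, which do not belong to this lineage, had at most 1 read in any library and were not tested.

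Sp8 and Sp9 are zinc finger factors that carry redundant roles in neuroblasts and in the calretinin and dopamine subtypes. Sp8 (chr12:118846288-118852578) measured 901.6, 757.0 and 603.7 normalized counts in controls against 54.6, 96.7 and 80.5 in the KO libraries. It fell by 3.29 on the log2 scale (SE 0.24, limma adjusted p = 1e-06). Sp9 (chr2:73271926-73275771) measured 184.1, 163.8 and 198.6 in controls against 18.9, 27.6 and 7.60 in the KO libraries. It fell by 3.43 on the log2 scale (SE 0.43, limma adjusted p = 5.3e-05). The controls of Sp9 varied little, and its KO replicate 3, with 5 reads, was the lowest.

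Dcx had the clearest decrease of the 10 genes relative to its error. On the X chromosome (chrX:143855842-143933396), it measured 1819, 2011 and 2788 normalized counts in controls against 44.7, 120 and 100.3 in the KO libraries. It fell by 4.72 on the log2 scale (SE 0.32, 95% interval -5.43 to -4.00, limma adjusted p = 6.1e-07), the smallest adjusted p of the 10. The KO values rest on 45, 304 and 66 reads, so doublecortin RNA was still detected in every KO library.

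Prokr2 had the largest decrease of the 10 genes and the second lowest log2 fold change of all genes tested. It lies at chr2:132369705-132385502 and measured 426.7, 662.0 and 906.3 normalized counts in controls against 9.93, 0.395 and 6.08 in the KO libraries, the latter from 10, 1 and 4 reads. Its log2 fold change was -7.06 (SE 0.66, 95% interval -8.54 to -5.58, limma adjusted p = 6.4e-06), with -6.18 without KO replicate 2 and -7.66 without KO replicate 1. The ratio of pooled reads was 185 (95% exact interval 112 to 331, counting error only). KO replicate 2, the deepest library, had the lowest Prokr2 and the highest values of 7 of the other 9 genes. The ratio of Prokr2 to Dcx was 0.235, 0.329 and 0.325 in controls against 0.222, 0.00329 and 0.0606 in the KO libraries. KO replicates 2 and 3 lay well below every control and KO replicate 1 just below the lowest. No share over other gene pairs was counted for such a separation. The ligand gene Prok2 was at 2, 21 and 1 reads in controls against 2, 1 and 0 in the KO libraries, with a limma adjusted p of 0.1. Prok2 lies outside the rule for named genes and was chosen after its values were seen.

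**Figure D2:**
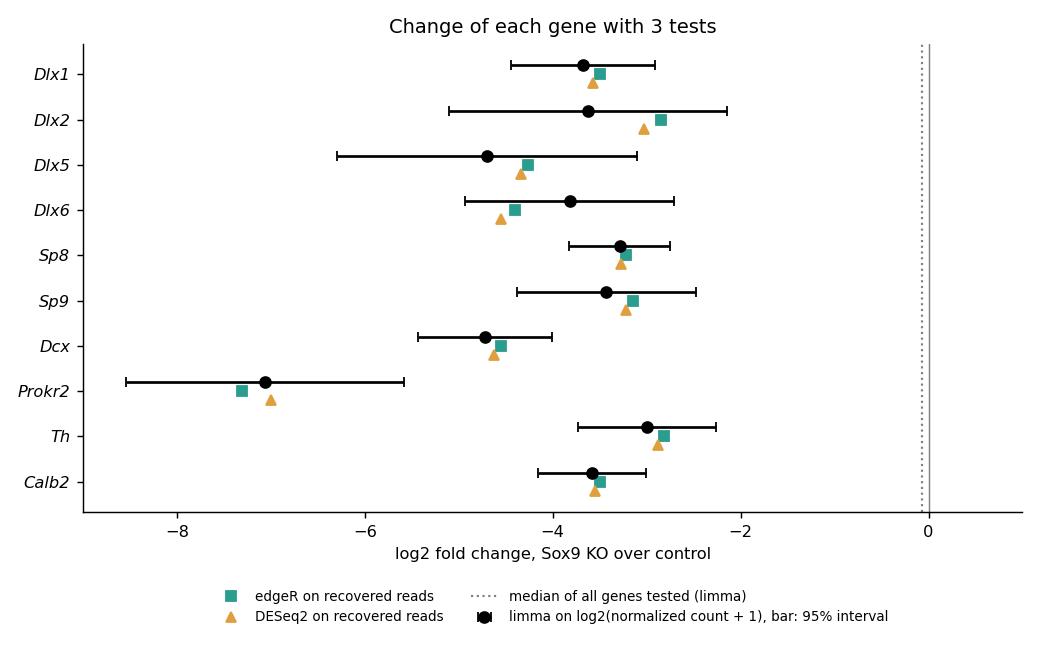
Log2 fold change (Sox9 KO over control) of each of the 10 genes by limma on normalized counts (black, with 95% interval) and by edgeR (squares) and DESeq2 (triangles) on the recovered reads. All 10 lie left of the dotted line at -0.07, the median of all genes tested, and the edgeR and DESeq2 estimates fall within the limma interval of each gene.

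Th (chr7:142892779-142899995) measured 428.2, 366.1 and 389.3 normalized counts in controls against 75.5, 54.5 and 27.3 in the KO libraries. It fell by 3.0 on the log2 scale (SE 0.33, limma adjusted p = 2.1e-05), the smallest decrease of the 10. The ratio of Th to Dcx was 0.235, 0.182 and 0.140 in controls against 1.69, 0.454 and 0.273 in the KO libraries, above every control in each of the 3. How often the ratios of other gene pairs part the groups was not counted. Of 11 other genes of dopamine synthesis, transport and breakdown, 6 were called lower, 3 were called higher and 2 were not called. Their median was -0.72. Over all genes tested, 28.8% were called lower and 22.2% higher. After quantile normalization 4 of the 11 were called lower and 3 higher, and at the same total 6 and 2. Qdpr, which recycles tetrahydrobiopterin, fell by 0.72 (SE 0.16, limma adjusted p = 0.0027). Nr4a2, a transcription factor of dopaminergic neurons that other cells also induce, measured 816.9, 660.0 and 788.1 normalized counts in controls against 1598, 1125 and 1720 in the KO libraries, and rose by 0.95 (SE 0.16, limma adjusted p = 5e-04). Pts, an enzyme of tetrahydrobiopterin synthesis, had a log2 fold change of 0.28 and was not called (limma adjusted p = 0.096). Slc6a3, the dopamine transporter, was chosen after its values were seen. It measured 78.9, 65.4 and 67.8 in controls against 7.94, 13.8 and 12.2 in the KO libraries, and fell by 2.57 (SE 0.37, limma adjusted p = 0.00016).

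Calb2 (chr8:110142526-110168212) measured 530.5, 573.9 and 652.6 normalized counts in controls against 31.8, 59.2 and 57.7 in the KO libraries. It fell by 3.58 on the log2 scale (SE 0.26, limma adjusted p = 9.6e-07). The ratio of Dcx to Calb2 was 3.43, 3.50 and 4.27 in controls against 1.41, 2.03 and 1.74 in the KO libraries, so that the 2 groups did not overlap. Of 17 other genes of GABA handling and interneuron subtypes, 14 were called lower and 0 higher. Their median was -2.50, and 28.8% of all genes tested were called lower and 22.2% higher. Gad1, which makes GABA, measured 2917, 2239 and 3091 in controls against 287.9, 443.3 and 235.5 in the KO libraries, and fell by 3.13 (SE 0.21, limma adjusted p = 6.6e-07). Gad2 fell by 2.77 (SE 0.22, limma adjusted p = 2.2e-06). Npy, a neuropeptide, fell by 0.60 (SE 0.24, limma adjusted p = 0.046), and it was not called by edgeR (adjusted p = 0.1) or after quantile normalization. Calb1, Pvalb and Sst, markers of other interneurons, were the 3 genes not called, and they are named here after their values were seen. Their log2 fold changes were -0.75, -0.52 and 0.55, and those of Calb1 and Pvalb turned positive after quantile normalization. Calb1 was called lower at the same total (-0.98) and at the same total without Rn45s (-1.07), where 15 of the 17 genes were called lower. After quantile normalization 11 of the 17 were called lower, with a median of -1.91.

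Compared per kilobase of exon, the order of the 10 genes in the controls was Calb2, Dcx, Th, Sp8, Dlx5, Prokr2, Dlx1, Dlx2, Sp9 and Dlx6. Calb2 stood apart at 336 ± 35.5 normalized counts per kb (SD, n = 3), followed by Dcx at 174 ± 40.6, Th at 167 ± 13.3 and Sp8 at 165 ± 32.7, whose libraries overlapped. Dlx5 at 92.6 ± 13.3 and Prokr2 at 84.0 ± 30.3 overlapped as well, and Prokr2 overlapped with Dlx1 at 64.2 ± 10.6. Dlx2 at 42.1 ± 6.06 and Sp9 at 36.1 ± 3.47 overlapped below these. Dlx6 was lowest at 13.7 ± 2.71. In the KO libraries the order was led by Calb2 at 28.4 ± 8.86, Th at 22.2 ± 10.2 and Sp8 at 17.0 ± 4.66, whose libraries overlapped, and Dcx came 4th at 6.98 ± 3.09, with its highest library below the lowest of Sp8. Prokr2 moved from 6th to 9th, at 0.690 ± 0.606. Of the summed level per kb of the 10 genes, Dcx held 12.8% to 17.5% in controls against 4.68% to 8.99% in the KO libraries, and Prokr2 held 4.79% to 9.07% and 0.0421% to 1.66%. Th held 13.0% to 16.1% in controls against 13.1% to 42.3% in the KO libraries, and Calb2 held 27.1% to 29.7% and 24.1% to 37.6%. Lengths are the joined exons of GENCODE, which may differ from those used in counting.

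**Figure D3:**
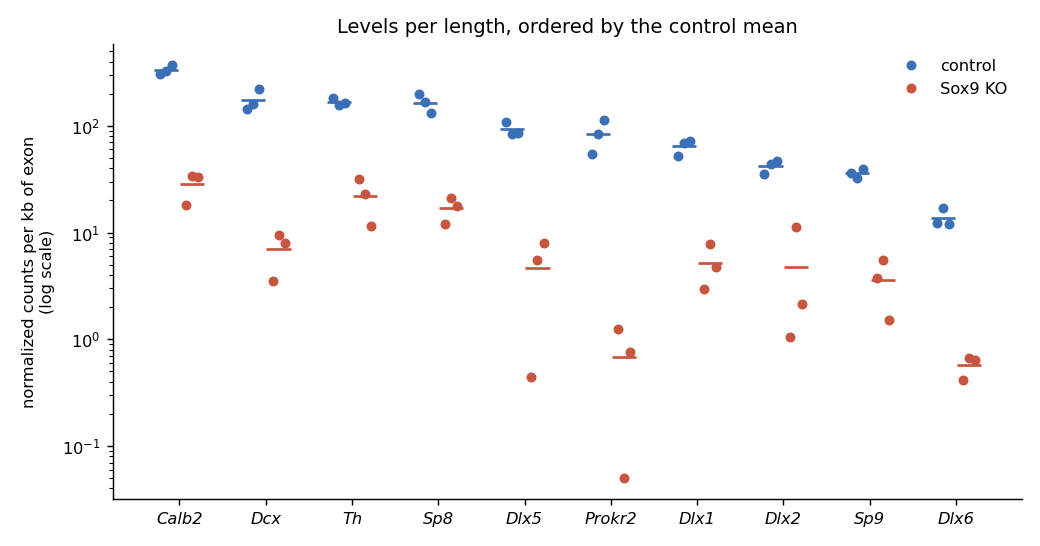
Normalized counts per kb of exon (log axis) of the 10 genes, ordered by their control mean, in the control libraries (blue) and the Sox9 KO libraries (red), with group means as lines. Dcx and Prokr2 drop further than their neighbours, while Calb2, Th and Sp8 are the 3 highest in the KO libraries.

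For these genes the KO libraries differed among themselves more than the controls did, with a higher coefficient of variation in KO for 10 of the 10. The pooled KO values rest on fewer reads, and fewer reads carry a larger relative counting error. Its part in this spread was not tested, and the share over all genes was not counted. KO replicate 1 was the lowest of the KO libraries for 7 genes, and KO replicate 2 was the highest for 7. The exceptions were mainly Prokr2 and Th, both highest in KO replicate 1. Th was lowest in KO replicate 3, as was Sp9, and Prokr2 was lowest in KO replicate 2. Among the controls, replicate 3 was the highest for 6 genes, Dcx, Dlx1, Dlx2, Sp9, Prokr2 and Calb2, and Sp8 was lowest there.

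**Figure D4:**
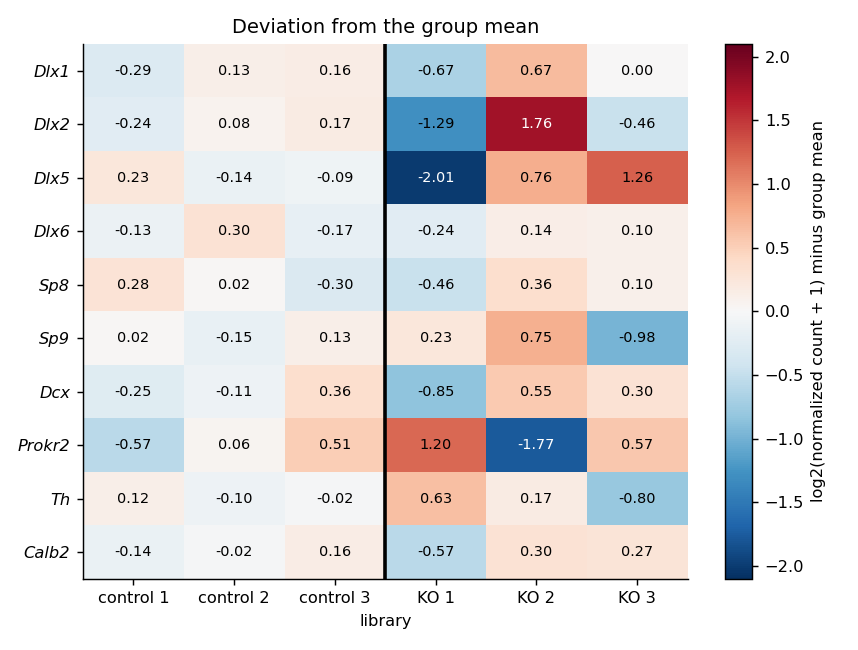
Deviation of each library from its group mean in log2(normalized count + 1), for the 10 genes (rows) and 6 libraries (columns), from blue (below) to red (above). The KO columns hold the deepest colours, with Dlx2, Dlx5, Dcx and Dlx1 low in KO replicate 1 and Prokr2 low in KO replicate 2.

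Most other genes listed for this lineage also fell. In bulk RNA the cells that these genes were read from are not known. In the same libraries 14 of 14 astrocyte markers were called lower, and the share of other cell types in these decreases was not tested. Of 19 other transcription factors of OB interneurons tested, 15 were called lower and 4 higher. Their median was -2.39, and 28.8% of all genes tested were called lower and 22.2% higher. Meis2, a partner of Dlx and Pax6 in these neurons, measured 3725, 3589 and 4350 normalized counts in controls against 265.1, 457.1 and 398.0 in the KO libraries, and fell by 3.41 (SE 0.18, limma adjusted p = 1.2e-07). Etv1, an ETS factor of dopaminergic interneurons, fell by 0.65 (SE 0.09, limma adjusted p = 0.00017). Sall3, a zinc finger factor of the same interneurons, rose by 0.84 (SE 0.11, limma adjusted p = 6.3e-05) and Tle4, a corepressor, by 0.74 (SE 0.10, limma adjusted p = 0.00012). Of the 4 calls of higher levels in this list, 1 was left when libraries were set to the same total, 0 without Rn45s and 2 after quantile normalization. The number called lower was 12 after quantile normalization, with a median of -1.6. Of 22 other neuroblast and immature neuron genes, 19 were called lower and 1 higher, with a median of -2.35. Among the most abundant, Dclk1, a kinase related to doublecortin, fell by 3.33 (SE 0.12, limma adjusted p = 1.4e-08), the tubulin gene Tubb2b by 2.95 (SE 0.11, limma adjusted p = 2e-08), the adhesion gene Ncam1 by 2.23 (SE 0.24, limma adjusted p = 1.7e-05) and Nnat by 2.18 (SE 0.10, limma adjusted p = 4.7e-08).

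Of 15 guidance cues and receptors of migrating neuroblasts, 9 were called lower and 1 higher. Their median was -1.74, and 28.8% of all genes tested were called lower and 22.2% higher. Epha4, an ephrin receptor, fell by 4.12 (SE 0.20, limma adjusted p = 7.4e-08) and Robo2, a Slit receptor, by 3.01 (SE 0.14, limma adjusted p = 5.3e-08). Itgb1, an integrin subunit used by many cell types, rose by 1.10 (SE 0.08, limma adjusted p = 8.6e-07), and Itga6 changed by 0.57, under the 1.5-fold limit. Of 12 genes of stem and transit amplifying cells, which precede the neuroblasts, 8 were called lower and 1 higher, with a median of -1.90. Nes, the intermediate filament nestin, fell by 4.90 (SE 0.31, limma adjusted p = 4e-07), Egfr by 4.60 (SE 0.22, limma adjusted p = 6.2e-08) and the cyclin gene Ccnd2 by 2.08 (SE 0.15, limma adjusted p = 1.1e-06). Pcna, a DNA replication gene, rose by 0.90 (SE 0.15, limma adjusted p = 0.00036), a call that was lost at the same total without Rn45s.

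Markers of other cells were called as well, more in some lists than in others. Of 14 pan-neuronal genes, 14 were called lower, with a median of -2.07, and their summed level was 25710 to 32510 normalized counts in controls against 4802 to 7521 in the KO libraries, and 9 of the 14 were called after quantile normalization. Snap25, a synaptic vesicle fusion protein, fell by 2.51 on the log2 scale (SE 0.22, limma adjusted p = 3.8e-06). Of 8 mitral and tufted cell genes, the projection neurons that are not made in the adult, 3 were called lower and 0 higher. Over all genes tested, 28.8% were called lower and 22.2% higher. The median of the 8 genes was -1.11. The number called lower was 1 after quantile normalization and 5 at the same total without Rn45s. In each library the mean log2 value of the 10 genes was set against that of each list. Relative to the pan-neuronal genes the 10 genes were at -0.98 ± 0.10 in controls against -3.01 ± 0.35 in the KO libraries (SD, n = 3), and relative to the mitral and tufted cell genes at 2.47 ± 0.47 and -0.59 ± 0.56. These differences are descriptions with no test.

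Of 14 astrocyte markers, 14 were called lower, with a median of -4.23, and their summed level was 664300 to 739300 normalized counts in controls against 44050 to 57500 in the KO libraries. Relative to these markers the 10 genes were at -6.21 ± 0.15 log2 units in controls against -6.37 ± 0.25 in the KO libraries, a difference of -0.16. Of 12 microglia and macrophage markers, 11 were called higher and 0 lower, with a median of 1.99, and their summed level was 191700 to 216300 in controls against 761600 to 882400 in the KO libraries. The series describes the sorted cells as astrocytes, and astrocyte markers were detected in all 6 libraries but at a much lower level in the KO libraries. Of 10 oligodendrocyte lineage markers, 10 were called lower, with a median of -2.39. Of 7 markers of olfactory ensheathing cells and sensory neurons, 7 were called lower, with a median of -1.62. After quantile normalization the numbers called lower in these lists were 9 and 5. Of 8 endothelial and mural markers, 4 were called lower and 2 higher, with a median of -0.72. Over all genes tested, 28.8% were called lower and 22.2% higher. After quantile normalization 3 of the 8 were called lower and 3 higher, with a median of 0.007. At the same total 4 were called lower and 0 higher. No marker of these cell types was at 0 in every KO library.

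**Figure D5:**
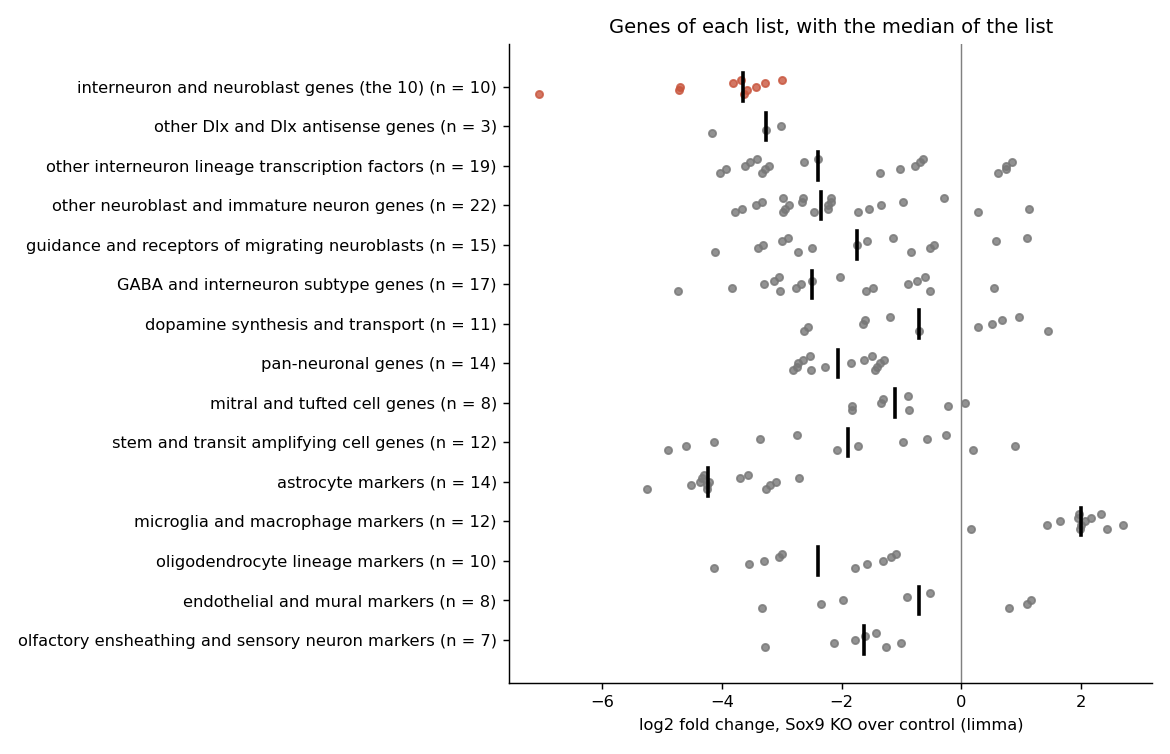
Log2 fold change (Sox9 KO over control, limma) of each gene tested in 15 lists (points, with the 10 genes in red) and the median of each list (black bar). The 10 genes have a median of -3.65, the astrocyte markers lie lower at -4.23 and the microglia and macrophage markers lie to the right at 1.99.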

How the data were processed

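RNA-seq was analysed from 6 libraries, 1 per mouse, grouped by the labels. The authors checked reads with FastQC and MultiQC, mapped them to mm10 with STAR 2.5.0a, used GenomicAlignments with GenomicFeatures for counting, and normalized with DESeq2 1.20.0. The paper also states a depth normalization with samtools. The deposited signal, 1 value for each gene in each library, carries the name RPM, but in each library 1 step divided 100% of the values to within 0.01 of a whole read, as for counts divided by a size factor, and they are called normalized counts here. For the annotation and the strandedness of counting, the sources used here state nothing.

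Genes with a mean of at least 1 were fitted on log2(normalized count + 1) with limma 3.58.1 (R 4.3.3), letting the variance follow mean expression, and p-values are two-sided. The pseudocount and filter had been set for RPM and were kept. Recovered reads were also tested with edgeR 4.0.16 (quasi-likelihood, TMM) and DESeq2 1.42.0, and pseudocount, filter, scaling, variance model and block were varied and libraries left out in turn. The tests were checked on simulated data. The 10 genes, the lists and the tests were chosen with earlier results of these data known. Named are the 10 genes, Sox9, the Dlx antisense genes and at most the 4 genes with the highest mean of each list. Dlx3, Dlx4, Calb1, Pvalb, Sst, Prok2, Slc6a3 and Rn45s lie outside this rule. Some single genes that the rule would name are not reported here. Promoters and gene coordinates are from RefSeq (GRCm38.p6, the mm10 assembly), and 7 of 10 genes had a promoter. Depth was 18242129 to 86906527 reads on genes, and 1 read, worth 0.395 to 1.58 normalized counts, sets the smallest step.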

Additional observations from a re-analysis of the deposited data

How the results depend on the processing

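All 10 genes were called lower under each alternative run: pseudocounts of 0.5 and 5, no filter or a minimum mean of 10, libraries set to the same total with or without Rn45s, quantile normalization, no variance trend, edgeR, DESeq2, unadjusted p, the replicate block, and each library left out. Over these, 170 of 170 values of single genes were negative and called, with a largest adjusted p of 0.011. The median log2 fold change of the 10 genes moved from -3.65 to -3.03 after quantile normalization, and lay between -3.95 and -3.44 with 1 library left out. Genes called higher over all tested moved from 4090 to 2630 when libraries were set to the same total without Rn45s. The median of all genes shifted by 0.27 after quantile normalization, -0.23 at the same total and -0.31 at the same total without Rn45s. Other moves over 1.5 times were, after quantile normalization, Dlx1 to -3.03, Dlx2 to -2.87, Dlx5 to -3.98, Dlx6 to -3.03, Sp9 to -2.70 and Th to -2.41, with a pseudocount of 5, Dlx5 to -3.98, Dlx6 to -2.55 and Prokr2 to -6.06, in edgeR, Dlx2 to -2.85, and in DESeq2, Dlx2 to -3.02 and Dlx6 to -4.55. The cause of these moves was not tested. With the replicate block, 10 of the 10 genes, 5227 genes in all lower and 4048 higher were called. Same-numbered libraries did not deviate together (correlations of -0.05, -0.01 and -0.01), and the labels link them only by number. With so few libraries, this cannot show whether they shared a step of handling. Depth limits Dlx6, Dlx5, Dlx2 and Prokr2, each with a KO library of 1 to 3 reads.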
